A study of Mus musculus with 12 samples.

Results

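Transcript levels of 9 mouse genes whose human counterparts are mutated in, or raise the risk of, amyotrophic lateral sclerosis (ALS) or spinal muscular atrophy (SMA) were followed in the lumbar spinal cord of a mouse model of Charcot–Marie–Tooth type 2A (CMT2A). The genes were Tardbp, C9orf72, Vcp, Tbk1, Ubqln2, Matr3, Hnrnpa1, Atxn2 and Smn1. They were taken as a list of names and matched by mouse symbol to 9 of the 49548 Ensembl genes counted in every library. RNA was sequenced from 8 MFN2 mice and 4 WT mice, all untreated and 30 days old, with 1 library per mouse. MFN2 mice are hemizygous MitoCharc1 animals, labelled CMT2A, with the transgene Tg(Eno2-MFN2*R94Q)L51Ugfm on a B6;D2 background. They carry human MFN2 with the R94Q change under the rat Eno2 promoter, which is active mainly in neurons, and keep their own mouse Mfn2. WT mice are labelled C57BL/6, whereas the methods of the study call them littermates of the MFN2 mice.

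ALS and SMA are diseases in which motor neurons of the spinal cord are lost, and most of the genes behind them are used in every cell. A first group encodes RNA-binding proteins: TDP-43 (Tardbp), matrin-3 (Matr3) and hnRNP A1 (Hnrnpa1) act mainly in the nucleus in splicing and RNA stability, and ataxin-2 (Atxn2) acts in cytoplasmic RNA granules. A second group clears proteins and organelles: VCP is an ATPase that unfolds ubiquitinated proteins, ubiquilin-2 (Ubqln2) carries them to the proteasome, TBK1 is a kinase that switches on autophagy receptors, and C9orf72 forms a complex with Smcr8 and Wdr41 that acts in autophagy and at the lysosome. The SMN protein, encoded in the mouse by Smn1 alone, assembles the spliceosomal snRNPs. MFN2 itself is a mitochondrial fusion protein, and VCP and the kinase TBK1 also take part in the removal of damaged mitochondria.

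Total counts ranged from 19359454 to 26738930 per library in MFN2 mice and from 19453238 to 23564568 in WT mice. Libraries are named here by the numbers in their labels. The WT libraries are numbered 44 to 47 and the MFN2 libraries 41 to 43 and 72 to 76, so that in the second run of numbers genotype and run cannot be told apart. A run here is only a run of library numbers, and whether the runs were separate batches is not known. The tissue was checked by marker genes before the results. Caudal Hox genes, which mark the lower spinal cord, summed to between 236 and 301 CPM (counts per 1000000 counts of the library, with library sizes scaled by TMM) in 11 libraries and to 42.8 CPM in MFN2 library 43. Motor neuron markers summed to 362 CPM in library 43 and to at least 1764 CPM in the others, and 11 forebrain genes, led by Camk2a, summed to 4776 CPM there and to at most 209 CPM elsewhere. Of the defining forebrain markers, Emx1 was at 6.76 CPM in library 43 and at most 0.153 CPM in any other, and it was at 0 in several of those. Library 43 therefore went against its tissue label, and results that rest on it are given with and without it. Schwann cell markers summed to 200 CPM in library 43 and 204 CPM in MFN2 library 73, against at most 4.85 CPM in the rest. Skeletal muscle markers, most abundant in Acta1, summed to 271 CPM in library 73 and 249 CPM in WT library 47, against 2.50 to 70.1 CPM in the others. Sex is not in the labels. Xist, the RNA of the inactive X chromosome, was at 0.267 CPM or less in 3 libraries (41, 43 and WT 44) and at 258 CPM or more in the other 9.

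All 9 genes are protein coding and were placed on GRCm38 by the GENCODE annotation. Tardbp (ENSMUSG00000041459), C9orf72 (ENSMUSG00000028300) and Vcp (ENSMUSG00000028452) lie on the minus strand of chromosome 4, at chr4:148612382-148627019, chr4:35191285-35226175 and chr4:42979963-43000507. Tbk1 (ENSMUSG00000020115) is at chr10:121546455-121586787 on the minus strand. On the plus strand are Ubqln2 (ENSMUSG00000050148, chrX:153498227-153501570), Hnrnpa1 (ENSMUSG00000046434, chr15:103240432-103246692), Atxn2 (ENSMUSG00000042605, chr5:121711337-121816493) and Smn1 (ENSMUSG00000021645, chr13:100124852-100137690). Ubqln2 is the only one of the 9 with a single exon and a single annotated transcript, while Tardbp has 30 annotated transcripts and Atxn2 has 20. Exons of 4 of the genes overlap a counted gene on the other strand. Masp2 shares 1817 exonic bases with Tardbp, whose exons have 7796, Gm12367 shares 247 with C9orf72 and 1700022I11Rik shares 352 with Vcp. Counts per library were low for Masp2 (2 to 18), Gm12367 (8 to 34) and 1700022I11Rik (4 to 21). They were higher, 228 to 415, for Sh2b3, which shares 99 exonic bases with Atxn2. The strand setting of the counting is not given in the sources used here, so that reads of these shared bases cannot be told apart. A low count of the overlapping gene does not show that the count of its partner is unaffected.

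Near-identical copies set how firmly a count can be tied to a gene. Reads were 75 bases long, and the share of 75-base windows of the coding sequence found in any other counted gene was 82.4% for Vcp, 78.1% for Hnrnpa1 and 1.96% for Tardbp. It was 0% for C9orf72, Tbk1, Ubqln2, Matr3, Atxn2 and Smn1. Both strands of the other genes were searched, and 2 genes shared windows with Vcp, of which Vcp-rs shared the most. The 82.4% is therefore not the share of Vcp-rs alone. Hnrnpa1 had 12 near copies (at least 90% identical over at least 300 bases), of which Gm10052 on chromosome 9 was 100% identical over 752 bases. The counts given to these copies summed to a median of 1.14% of the Hnrnpa1 level. The copy of Vcp is Vcp-rs (ENSMUSG00000083327), a processed pseudogene at chrX:104345829-104348234 on the minus strand. It lacks the introns of Vcp and aligned over the whole coding sequence of 2421 bases with 99.0% identity. Counted from the A of the start codon of Vcp, it differs by 8 substitutions, G570A, T690C, T1485C, T1488C, C1539T, A1758T, C1813T and T2157C, and by a deletion of the 15 bases 1700 to 1714. None of the 8 substitutions changes the amino acid, and the deletion keeps the reading frame, so that the first stop of the copy is at codon 802 in place of 807. The longest difference between gene and copy is shown here from position 1685 of Vcp, on the coding strand of GRCm38, with the bases that the copy lacks in capitals.
Vcp: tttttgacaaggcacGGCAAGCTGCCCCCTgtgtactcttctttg
Vcp-rs: tttttgacaaggcacgtgtactcttctttg
Of the 2347 windows in Vcp, 76.9% occur base for base in Vcp-rs. A single read from these windows cannot be assigned by sequence alone, which leaves the values of Vcp, Vcp-rs and Hnrnpa1 uncertain. The windows cover the coding sequence only, 2421 bases in Vcp and 1122 in Hnrnpa1. Annotated exons are 4851 and 3153 bases long, and reads were paired. The share of counts affected was therefore not measured.

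Per length of annotated exon, the 9 genes spanned a wide range of levels. Ubqln2 was highest, with a median of 58.3 RPKM over the 12 libraries (RPKM, the CPM value per kilobase of exon), followed by Vcp at 47.3 RPKM and Hnrnpa1 at 37.3 RPKM. Matr3 was at 22.5 RPKM, Tardbp at 12.5, Atxn2 at 11.9 and Tbk1 at 11.7 RPKM. C9orf72 was at 6.99 RPKM and Smn1 lowest at 2.76 RPKM, below the median of 3.95 RPKM over the tested genes. In this order each of Ubqln2, Vcp, Hnrnpa1 and Matr3 lay above the next gene in all 12 libraries, as did Tbk1 above C9orf72 and C9orf72 above Smn1. The 3 genes in the middle did not separate: Tardbp lay above Atxn2 in 9 of 12 libraries and Atxn2 above Tbk1 in 5 of 12. Length here is that of all annotated exons together, which is 15689 bases for Atxn2 and 10158 for Matr3, and levels of genes with long exons that few transcripts use are understated. Smn1 rested on the fewest reads, 137 to 219 counts per library, and the SD of its CPM was 12.5% of the mean in MFN2 mice and 4.64% in WT mice.

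**Figure D1:**
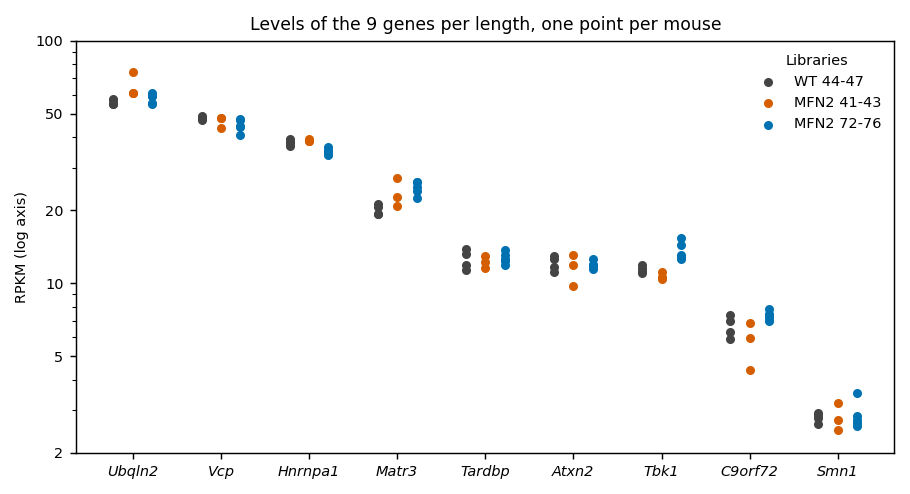
Level of each gene per length (RPKM, log axis) in the 12 libraries, ordered by the median, with WT libraries 44 to 47 in grey, MFN2 libraries 41 to 43 in orange and MFN2 libraries 72 to 76 in blue; each point is a mouse. Ubqln2 lies highest, at 54.7 to 74.1 RPKM, Smn1 lowest, at 2.48 to 3.54 RPKM, and Tardbp, Atxn2 and Tbk1 overlap.

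To learn whether mutant MFN2 went with a change in these genes, the 8 MFN2 libraries were compared with the 4 WT libraries in a single edgeR fit over the 15942 genes above 1 CPM in at least 3 libraries. All 9 genes passed this filter in every comparison below. None of the 9 had an FDR (p adjusted by the Benjamini-Hochberg method over all genes tested) of 0.05 or less, against 0% of all genes tested. At an unadjusted p under 0.05 in edgeR there was 1 of the 9, Matr3, against 15% of all genes (2386 of 15942), and neither DESeq2, with 1.25% of all genes (200 of 15942) past its threshold, nor limma-voom, with 0%, called any of the 9. Without library 43 edgeR called 0 of the 9 and 0.12% of all genes. For none of the 9 did the MFN2 and WT ranges separate, beside 2.04% of all genes (0.979% higher and 1.07% lower). The 95% intervals of the 9 differences lay between -0.27 and 0.43 on the log2 scale. Their median was 0.016 on the log2 scale, beside 0.0038 over all genes tested. Mouse Mfn2 itself differed by -0.047 (95% interval -0.19 to 0.094) between MFN2 and WT mice, and human MFN2 was not analysed here. The samples are bulk tissue, in which fewer cells of a type and less RNA per cell cannot be told apart.

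Because all WT libraries carry numbers of the first run, the MFN2 libraries were then compared run by run. Libraries 41 to 43 against WT gave 0 of the 9 genes past an FDR of 0.05, beside 0.00658% of all genes (1 of 15200), with 1 of the 9 at an unadjusted p under 0.05 in edgeR beside 7.12% of all genes, and DESeq2, with 0.0329% of all genes, and limma-voom, with 0%, gave 0 of the 9 as well. Without library 43 edgeR gave 0 of the 9 and 0.00667% of all genes. The ranges were separate for 1 of the 9, Ubqln2, beside 8.97% of all genes (4.68% higher and 4.29% lower). Libraries 72 to 76 against the same WT libraries gave 2 of the 9, Matr3 and Tbk1, both higher, beside 23.8% of all genes tested (11.1% higher and 12.7% lower). The share of 2 in 9 is near that background. Without WT library 45 the background fell to 2350 genes, with the same 2 of the 9 past the threshold. At an unadjusted p under 0.05 there were 3 of the 9 beside 37.8% of all genes, and 3 of the 9 had separate ranges beside 19.8%. DESeq2 called 3 of the 9, with Hnrnpa1 added, beside 27% of all genes. Libraries 72 to 76 against 41 to 43, all from MFN2 mice, gave 0 of the 9 in edgeR, beside 2.19% of all genes (1% higher and 1.18% lower), with 3 of the 9 at an unadjusted p under 0.05 beside 24.6% of all genes. DESeq2 called 2 of the 9 there, Tbk1 and Hnrnpa1, beside 11.5% of all genes. Without library 43 edgeR called 1 of the 9, Tbk1, beside 15.3% of all genes (2375 of 15509). Ranges were separate for 3 of the 9 beside 18.4% of all genes. The comparisons share libraries, and a gene past the threshold in one of them was not shown to differ from the others by that alone.

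**Figure D2:**
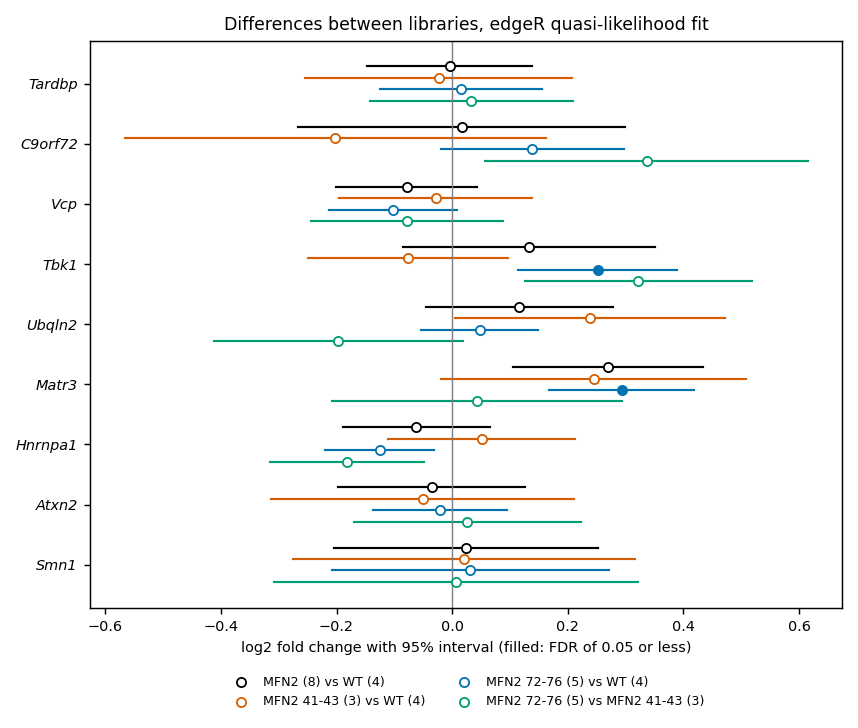
Difference of each of the 9 genes on the log2 scale (points) with its 95% interval (lines) in the 4 comparisons, from edgeR's quasi-likelihood fit; filled points have an FDR of 0.05 or less. Matr3 (0.29) and Tbk1 (0.25) in MFN2 libraries 72 to 76 against WT are the filled points.

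Matr3 (ENSMUSG00000037236, chr18:35562138-35593835 on the plus strand), which encodes a nuclear matrix protein that binds RNA, showed the largest difference of the 9 over all libraries. In MFN2 libraries 41, 42 and 43 it was at 212, 231 and 275 CPM, in WT libraries 44 to 47 at 217, 197, 209 and 196 CPM, and in MFN2 libraries 72 to 76 at 266, 243, 266, 252 and 227 CPM. Of the 8 MFN2 libraries 7 lay above every WT library, and library 41 lay within the WT range, a count not taken for all genes. Mean levels were 247 ± 22.3 CPM (SD, n = 8) with the transgene and 205 ± 10.02 CPM (SD, n = 4) without it, and the log2 fold change was 0.27 (95% interval 0.11 to 0.43, edgeR FDR = 0.254), which did not pass the test. Without library 43, where Matr3 was highest, the log2 fold change was 0.25 (edgeR FDR = 0.103). In libraries 72 to 76 alone Matr3 rose by 0.29 on the log2 scale against WT (SE 0.058, edgeR FDR = 0.00420), 1.23-fold, and the ranges did not overlap, which was so for 9.50% of all genes in the higher direction. In libraries 41 to 43 against WT the log2 fold change was 0.24 (95% interval -0.019 to 0.51, edgeR FDR = 0.622), and 0.12 without library 43 (edgeR FDR = 0.908). The 2 MFN2 runs overlapped, with a difference of 0.043 (95% interval -0.21 to 0.29), which was 0.17 without library 43 (edgeR FDR = 0.140). Matr3 overlaps Gm28285, annotated on the same strand, and an antisense gene, neither of which is among the genes analysed here.

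Tbk1 was the other gene that passed the test in libraries 72 to 76. It was at 41.6, 40.8 and 43.5 CPM in MFN2 libraries 41 to 43, at 45.1, 43.3, 44.04 and 46.5 CPM in WT libraries 44 to 47, and at 51.2, 49.1, 56.2, 59.96 and 50.1 CPM in MFN2 libraries 72 to 76. The MFN2 libraries thus fell on both sides of the WT libraries, with those numbered 72 to 76 above all 4 and 2 of those numbered 41 to 43 below all 4. Of all genes, 9.5% had libraries 72 to 76 above all 4 WT libraries. Against WT, Tbk1 rose by 0.25 on the log2 scale in libraries 72 to 76 (SE 0.064, edgeR FDR = 0.0141), whereas the value in libraries 41 to 43 was -0.076 (95% interval -0.25 to 0.097). Between the MFN2 runs it was 0.32 higher in libraries 72 to 76 (95% interval 0.13 to 0.52, edgeR FDR = 0.0825), with no overlap, as for 9.74% of all genes in the higher direction. Without library 43 this difference was 0.36 and passed the test (edgeR FDR = 0.0187). Over all 12 libraries the log2 fold change was 0.13 (edgeR FDR = 0.519), and with the numbering run as a covariate it turned to -0.092.

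Markers of other cells moved with the comparison in which Matr3 and Tbk1 passed. In libraries 72 to 76 against WT, 4 of 6 astrocyte markers and 5 of 6 microglia markers fell and none rose, beside 12.7% of all genes lower and 11.1% higher. The astrocyte markers, most abundant in Slc1a2, summed to 4963, 5327, 5110, 4995 and 6380 CPM in libraries 72 to 76 and to 6992, 7751, 6774 and 7087 CPM in WT libraries. The microglia markers, most abundant in Csf1r, summed to 97.0, 92.9, 93.9, 80.0 and 103 CPM against 107, 144, 126 and 131 CPM. No gene of either list was at 0 in any library. Neither pan-neuronal markers, with 1 of 8 higher and 1 lower, nor motor neuron markers, with 0 of 7 past the threshold in edgeR, moved together. The part of these cells in the Matr3 and Tbk1 values was not tested. Library 73 and WT library 47 were the highest in skeletal muscle markers (271 and 249 CPM). Matr3 and Tbk1 passed the test also without library 73 and without WT library 47. The log2 fold changes were then 0.31 and 0.27 for Matr3 and 0.29 and 0.27 for Tbk1 (edgeR FDR from 0.00720 to 0.0191). These fits do not bear on the astrocyte and microglia markers.

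**Figure D3:**
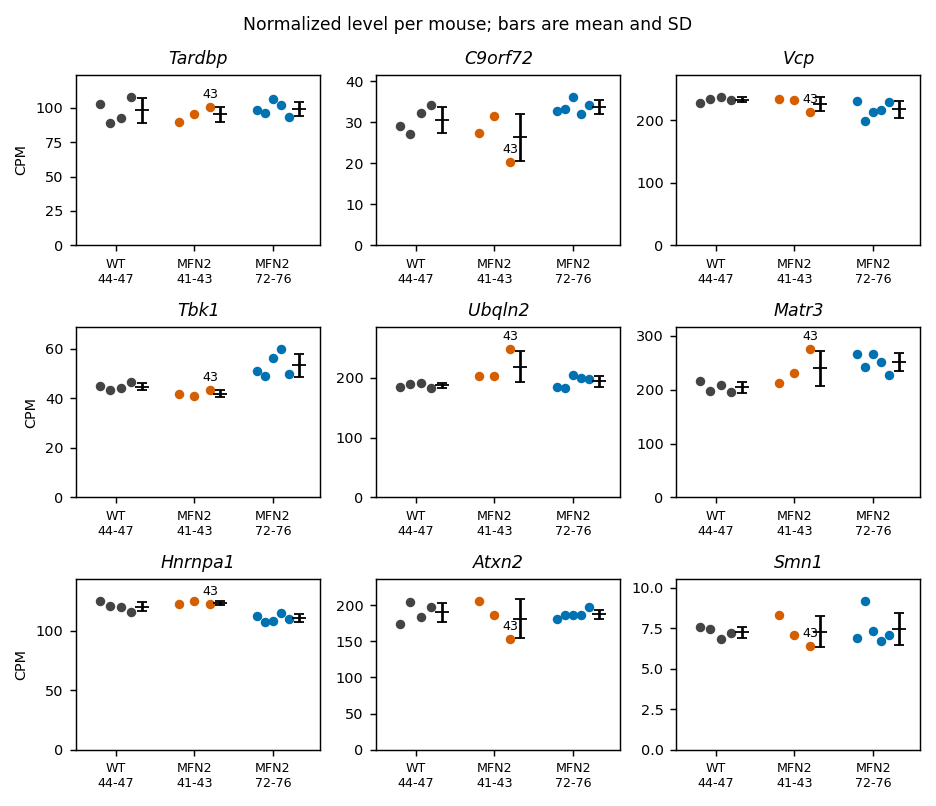
Normalized level (CPM, axes from 0) of the 9 genes in each mouse, for WT libraries 44 to 47, MFN2 libraries 41 to 43 and MFN2 libraries 72 to 76, with bars for the mean and SD of each set and library 43 marked. Tbk1 (49.1 to 59.96 CPM) and Matr3 (227 to 266 CPM) lie above the WT libraries in libraries 72 to 76, and Hnrnpa1 (107 to 115 CPM) lies below them.

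The other RNA-binding proteins did not pass the test in edgeR in any comparison. Hnrnpa1, an RNA-binding protein with a role in splicing, was at 122, 125 and 122 CPM in MFN2 libraries 41 to 43, at 124, 120, 119 and 116 CPM in WT libraries and at 112, 107, 108, 115 and 109 CPM in libraries 72 to 76. Its levels in libraries 72 to 76 lay below all WT libraries and below libraries 41 to 43, as for 10.3% and 8.63% of all genes in the lower direction. The log2 fold changes of -0.13 against WT (95% interval -0.22 to -0.031, edgeR FDR = 0.0545) and -0.18 against libraries 41 to 43 (95% interval -0.31 to -0.048, edgeR FDR = 0.118) did not pass the test. DESeq2 placed Hnrnpa1 past the threshold in both. Tardbp, whose TDP-43 protein aggregates in most cases of ALS, averaged 97.8 ± 5.28 CPM (SD) over the 8 MFN2 libraries and 98.1 ± 8.82 CPM (SD) over the 4 WT libraries. The log2 fold change of Tardbp was -0.0039 (95% interval -0.15 to 0.14), and the WT libraries covered the whole MFN2 range, from 88.8 to 108 CPM against 90.03 to 106 CPM. Atxn2 averaged 185 ± 15.3 CPM (SD) over the 8 MFN2 and 190 ± 13.4 CPM (SD) over the 4 WT libraries, a difference of -0.036 on the log2 scale (95% interval -0.20 to 0.13). Library 43 was lowest for Atxn2, at 153 CPM, and without it the log2 fold change was 0.000059.

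Among the genes of protein clearance, Vcp did not pass the test in any comparison. It was at 233, 232 and 213 CPM in MFN2 libraries 41 to 43, at 228, 234, 237 and 232 CPM in WT libraries and at 231, 198, 213, 216 and 228 CPM in libraries 72 to 76. Of these values, 4 of the 8 in MFN2 mice lay below every WT library and none above, a count not taken for all genes. The log2 fold change of Vcp was -0.079 (95% interval -0.20 to 0.043, edgeR FDR = 0.494). The pseudogene Vcp-rs had a median of 4.49% of the Vcp level, with 145 to 296 counts per library. It was at 12.04, 12.1, 10.5, 11.5 and 10.5 CPM in libraries 72 to 76 and at 8.03, 10.2, 8.86 and 7.57 CPM in WT libraries, with no overlap, as for 9.5% of all genes in the higher direction. Vcp-rs rose there by 0.38 on the log2 scale (SE 0.10, edgeR FDR = 0.0175), while Vcp in the same libraries was at -0.10 (edgeR FDR = 0.165). The log2 fold change of Vcp-rs was 0.27 over all libraries (edgeR FDR = 0.336) and 0.085 in libraries 41 to 47 (edgeR FDR = 0.839), and did not pass the test there. Since 76.9% of windows of the coding sequence are identical, both values depend in part on how the authors' pipeline placed reads that match both. Exons of Vcp outside the coding sequence were not examined for this.

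**Figure D4:**
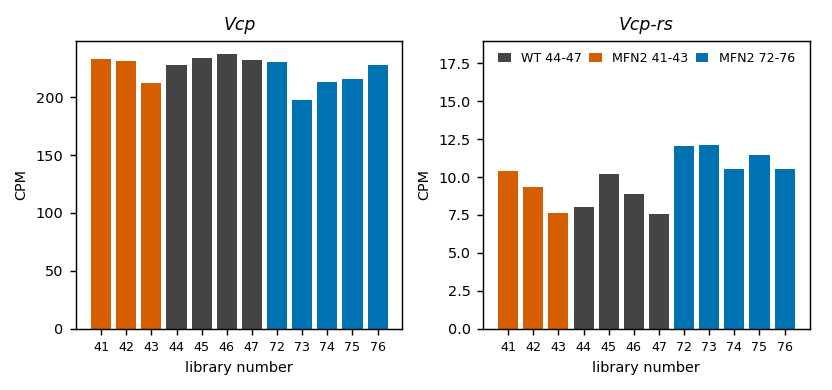
Normalized level (CPM, axes from 0) of Vcp and of its processed pseudogene Vcp-rs in the 12 libraries, by library number and coloured by set. Vcp-rs lies between 10.5 and 12.1 CPM in MFN2 libraries 72 to 76, above all 4 WT libraries (7.57 to 10.2 CPM), while Vcp overlaps.

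Ubqln2, the ubiquitin receptor that shuttles substrates to the proteasome, was highest in library 43. It was at 203, 203 and 248 CPM in MFN2 libraries 41 to 43, at 184, 190, 192 and 183 CPM in WT libraries and at 185, 183, 204, 199 and 198 CPM in libraries 72 to 76. All of MFN2 libraries 41 to 43 lay above the WT libraries, as for 4.68% of all genes in the higher direction, while libraries 72 to 76 overlapped them. The log2 fold change of 0.24 in libraries 41 to 43 (95% interval 0.0053 to 0.47, unadjusted p = 0.0461 and FDR = 0.622 in edgeR) did not pass the test and was 0.13 without library 43. Over all libraries the log2 fold change of Ubqln2 was 0.12 (95% interval -0.046 to 0.28), and 0.070 without library 43 (edgeR FDR = 0.402). C9orf72 was lowest in library 43. It was at 27.3, 31.4 and 20.2 CPM in libraries 41 to 43, at 29.0, 26.99, 32.3 and 34.1 CPM in WT libraries and at 32.6, 33.3, 36.2, 32.1 and 34.3 CPM in libraries 72 to 76. The MFN2 runs did not overlap, as for 9.74% of all genes in the higher direction. The difference of 0.34 on the log2 scale (95% interval 0.057 to 0.62, edgeR FDR = 0.145) did not pass the test and was 0.19 without library 43. Against WT, C9orf72 was at -0.20 in libraries 41 to 43 (95% interval -0.57 to 0.16), or -0.049 without library 43. It was at 0.14 in libraries 72 to 76 against WT (95% interval -0.020 to 0.30), and at 0.082 to 0.20 with each library left out. Neither comparison passed the test. Over all libraries the log2 fold change was 0.016 (95% interval -0.27 to 0.30). This value was 0.086 without library 43 and turned to -0.22 with the numbering run as a covariate.

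Smn1, the SMA gene, averaged 7.39 ± 0.923 CPM (SD) over the 8 MFN2 libraries and 7.27 ± 0.337 CPM (SD) over the 4 WT libraries. The log2 fold change was 0.024 with a 95% interval from -0.20 to 0.25, and a difference within this interval could not be told from 0 with these libraries. The lowest MFN2 library, 43, was at 6.43 CPM and the highest, 73, at 9.18 CPM, on either side of the WT range of 6.82 to 7.60 CPM. In the other comparisons the value lay between 0.0068 and 0.031 on the log2 scale. Without library 43 it was 0.050 over all libraries, 0.097 in libraries 41 to 47 and -0.065 between the MFN2 runs, none past the test.

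Of 13 partners and relatives of the 9 proteins, 2 passed the test, Ufd1 and Ubqln1, both in libraries 72 to 76 against WT, where 23.8% of all genes did. Ufd1, the adaptor that with Nploc4 brings ubiquitinated proteins to VCP, was at 49.3, 55.5 and 41.2 CPM in MFN2 libraries 41 to 43, at 43.9, 44.7, 43.6 and 40.8 CPM in WT libraries and at 52.6, 54.8, 54.96, 54.6 and 53.9 CPM in libraries 72 to 76. In 7 of 8 MFN2 libraries it lay above all WT libraries, and library 43 was within their range, a count not taken for all genes. Ufd1 rose by 0.32 in libraries 72 to 76 (SE 0.046, edgeR FDR = 0.000722), and over all libraries the value was 0.27 (95% interval 0.099 to 0.44, edgeR FDR = 0.261). Without library 43 Ufd1 was 0.31 higher in MFN2 than in WT mice and passed the test (95% interval 0.20 to 0.42, edgeR FDR = 0.0414). Ubqln1, a close relative of Ubqln2, was at 176, 182, 200, 202 and 224 CPM in libraries 72 to 76 and at 226, 237, 246 and 247 CPM in WT libraries, with no overlap, as for 10.3% of all genes in the lower direction. It fell by 0.28 on the log2 scale (SE 0.066, edgeR FDR = 0.00970), beside 0.047 for Ubqln2 and -0.19 for Ubqln4 (edgeR FDR = 0.490 and 0.0864). Nploc4 was at -0.012 there. The complex partners of C9orf72 were at -0.019 (Smcr8) and -0.10 (Wdr41), and the autophagy receptors that TBK1 phosphorylates were at 0.084 (Optn) and 0.049 (Sqstm1). For the Gemin proteins that bind SMN the log2 fold changes were 0.21 for Gemin2, 0.14 for Ddx20 and 0.13 for Gemin5, and for the relatives of ataxin-2 and hnRNP A1 they were -0.0015 (Atxn2l) and 0.13 (Hnrnpa2b1), none past the test (edgeR FDR from 0.0571 to 0.990 over these 11 genes). None of the 13 passed in edgeR over all libraries, in libraries 41 to 47 or between the MFN2 runs. Of all genes 0%, 0.00658% and 2.19% did. Without library 43 Ufd1 passed over all libraries, beside 0.12% of all genes. In the fit between the MFN2 runs without library 43, Ubqln1 passed (-0.32, edgeR FDR = 0.0304), beside 15.3% of all genes.

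The pathways around the 9 genes were read from 9 lists with 199 genes in all. Over all 12 libraries and in libraries 41 to 47 none of these genes passed an FDR of 0.05 in edgeR, with 1 to 5 and 0 to 1 genes of each list, of 11 to 34 tested, at an unadjusted p under 0.05, where 15% and 7.12% of all genes were. In libraries 72 to 76 against WT the shares past the threshold lay on either side of the 23.8% of all genes. Of 34 tested ALS genes outside the 9, 3 rose and 5 fell (23.5%). Among them Nek1, a kinase of DNA repair and cilia, rose by 0.34. Chchd10, a protein of the mitochondrial intermembrane space, fell by 0.42 from 148 ± 15.6 CPM (SD, n = 4) to 111 ± 4.98 CPM (SD, n = 5), Spg11 fell by 0.28 and Pfn1, the actin-binding profilin, by 0.23. Of 30 hnRNP proteins and splicing factors 4 rose and 4 fell (26.7%). Hnrnpdl rose by 0.39, Hnrnpk by 0.26 and Hnrnpr by 0.27, while Hnrnpa0 fell by 0.41, Hnrnpul2 by 0.17 and Pcbp2 by 0.17. Of 13 paraspeckle and nuclear matrix genes, the list around Matr3, 4 rose and 1 fell (38.5%), with a median difference of 0.14 on the log2 scale beside -0.00066 for all genes. Sltm, Safb2 and Pspc1 rose by 0.34, 0.43 and 0.21, and Alyref, an mRNA export factor, fell by 0.23. For the stress granule list around ataxin-2 the count was 3 of 18 (16.7%), with Nufip2 and Tial1 higher by 0.23 each and Fxr2 lower by 0.22.

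The same comparison gave these counts for genes of protein clearance and of snRNP assembly. Of 24 VCP cofactors 2 rose and 4 fell (25%). Besides Ufd1, the ubiquitin ligase Ube4b rose by 0.15. Derl1, which acts with VCP in degradation from the endoplasmic reticulum, fell by 0.31, and Svip fell by 0.41. Of 11 ubiquilins and proteasome shuttles 2 rose, Ube3a by 0.24 and the proteasome ubiquitin receptor Adrm1 by 0.31, and Ubqln1 alone fell (27.3%). Of 19 partners of C9orf72 and TBK1 none rose, and the TBK1-binding Tbkbp1 fell by 0.20 and the autophagy gene Atg101 by 0.29 (10.5%). The SMN complex, its cofactors and the Sm proteins gave 3 of 24 (12.5%), with Strap and Tgs1 higher by 0.18 and 0.20 and the Sm protein Snrpd1 lower by 0.39. Among 27 other SMA and motor neuropathy genes 1 rose and 5 fell (22.2%), the actin bundler Pls3 higher by 0.15, Chp1, the small heat shock protein Hspb8 and the acid ceramidase Asah1 lower by 0.35, 0.46 and 0.26. The edgeR FDR of the genes named in these lists ran from 0.000414 for Hnrnpdl to 0.0352 for Pls3.

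**Figure D5:**
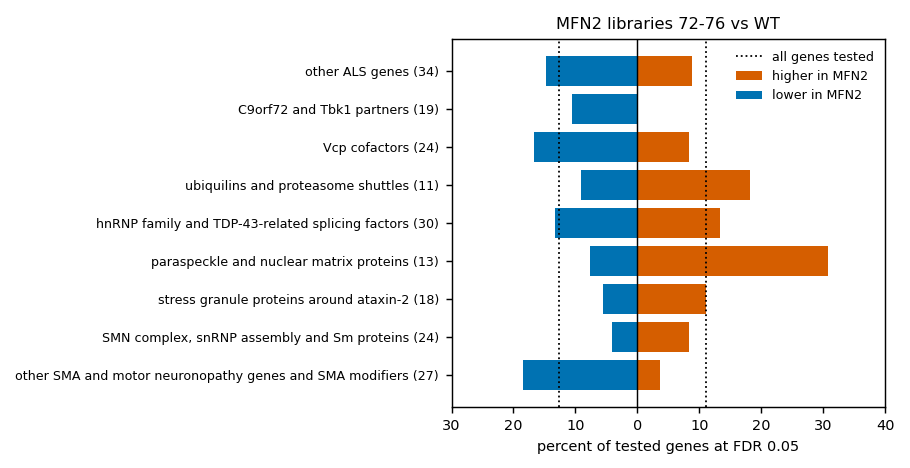
Percent of the tested genes of each list (number tested in brackets) that were lower (blue, left) or higher (orange, right) in MFN2 libraries 72 to 76 than in WT at an FDR of 0.05, with dotted lines at the 12.7% lower and 11.1% higher among all genes tested. Higher genes are most frequent in the paraspeckle list, 4 of 13, and absent in the list of C9orf72 and TBK1 partners.

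Where a list held no gene past the threshold, the gene with the lowest p stood as follows, given for 8 of the 9 lists over all libraries. Over all 12 libraries the log2 fold changes in MFN2 mice were -0.34 for Chchd10, -0.18 for Irf3, 0.20 for Ube3a, 0.21 for Hnrnpk, 0.15 for Nono, 0.16 for Nufip2, 0.17 for Tgs1 and -0.30 for Chp1 (edgeR FDR from 0.254 to 0.321). In libraries 41 to 43 against WT they were -0.22 for Spg11, -0.18 for Wdr41, 0.46 for Ubxn2b, 0.15 for Ube3a, 1.501 for Celf2, 0.20 for Nono, 0.22 for Fmr1, 0.26 for Snrpf and 1.01 for Ncald, all with an edgeR FDR of 0.622. The values of Celf2 and Ncald rested on library 43, in which they were at 373 and 373 CPM, against 79.7 to 88.4 CPM and 111 to 117 CPM in MFN2 libraries 41 and 42. Without library 43 the log2 fold change was 0.38 for Celf2 (edgeR FDR = 0.862) and 0.18 for Ncald (edgeR FDR = 0.885). The other values of this comparison without library 43 were -0.15 for Spg11, -0.15 for Wdr41, 0.21 for Ubxn2b, 0.14 for Ube3a, 0.14 for Nono, 0.12 for Fmr1 and 0.27 for Snrpf (edgeR FDR from 0.885 to 0.916). Over all libraries without library 43 those named lay between -0.34 for Chchd10 and 0.22 for Hnrnpk (edgeR FDR from 0.0783 to 0.268). Between the MFN2 runs Calcoco1, an autophagy receptor, fell by 0.29 (edgeR FDR = 0.0444) and Hnrnpa0 by 0.60 (edgeR FDR = 0.0299) in libraries 72 to 76. In the other lists the lowest p was that of Nek1 (0.38), Ube4b (0.28), Adrm1 (0.27), Safb2 (0.46), Tial1 (0.30), Snrpd1 (-0.37) and Gars (0.26), with an edgeR FDR from 0.0556 to 0.0701. Without library 43 all of these passed the test, with Calcoco1 at -0.30, Hnrnpa0 at -0.49, Nek1 at 0.46, Ube4b at 0.24, Adrm1 at 0.22, Safb2 at 0.47, Tial1 at 0.35, Snrpd1 at -0.36 and Gars at 0.22 (edgeR FDR from 0.00279 to 0.0367). In that fit the share past the threshold ran from 8.33% of the SMN list to 38.5% of the paraspeckle list, beside 15.3% of all genes.

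Across the 12 libraries, the gene whose log2 CPM followed each of the 9 most closely among 15902 genes was taken as a description of likeness, in which the points share genotype, run and library 43. For Matr3 it was Camsap2 (Pearson r = 0.973 over 12 libraries and 0.965 over the 11 without library 43), and for Tbk1 it was Ddx10 (0.917 and 0.925). Hnrnpa1 was most like Sfxn5 (0.960 and 0.969), Vcp most like Stard10 (0.924 and 0.918) and Tardbp most like Mcts1 (0.883 and 0.901). The values that moved most without library 43 were those of Ubqln2 with Cdkl2 (0.964 and 0.854), C9orf72 with Abca5 (0.960 and 0.905) and Atxn2 with Prrg1 (0.967 and 0.912). Smn1, the lowest of the 9, was most like Gstcd (0.892 and 0.870). Each of these genes was picked for the highest r among 15902 genes, and a maximum of so many values is raised by that choice. Within the 9 genes, Tbk1 and Hnrnpa1 ran in opposite directions (r = -0.733, and -0.717 without library 43), as did C9orf72 and Hnrnpa1 (-0.626 and -0.745). Tbk1 and Matr3 ran together (0.517 and 0.718). These pairs were picked from all pairs of the 9. Without library 43 another gene was the most alike for each of the 9. It was Dcc for Matr3 (0.984), Gramd1a for Tbk1 (0.931), Tlnrd1 for Hnrnpa1 (0.974), Ufsp1 for Vcp (0.940), Nell2 for Tardbp (0.923), Pisd for Ubqln2 (0.913), Map3k21 for C9orf72 (0.939), Xrcc3 for Atxn2 (0.920) and Drp2 for Smn1 (0.940). C9orf72 and Ubqln2 had r = -0.700 over 12 libraries and 0.0191 without library 43.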

How the data were processed

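The authors deposited whole-number counts of reads per Ensembl gene, 1 file per mouse. Per the labels and methods, poly(A) RNA was sequenced as paired 75-base reads, with a SMARTER mRNA-Seq kit per the labels and a stranded total RNA kit per the methods, and the submitters' processing notes name bcl2fastq, STAR, edgeR and GRCm38.p6. How reads were counted, and whether strand was used, is not given in the sources used here. The 9 genes and the gene and marker lists were chosen with earlier results of these data known. Genes above 1 CPM in at least 3 libraries of a comparison were kept, scaled by TMM and tested with the robust quasi-likelihood test of edgeR 4.0.16 in R 4.3.3, with p-values adjusted by the Benjamini-Hochberg method over all genes tested and a threshold of 0.05. The fit took only the libraries compared, without covariates. Alternatives used no filter, filterByExpr, library size only, DESeq2 1.42.0, limma-voom 3.58.1, the newer quasi-likelihood test of edgeR, covariates and each library left out. Symbols, exons and coordinates came from GENCODE on GRCm38 (49289 of 49548 genes matched). RPKM is CPM per kilobase of joined exons. Near copies were found with BLASTN 2.17.0. Named genes were the 9, 13 partners and relatives, Vcp-rs, Mfn2 and, in each list, up to 3 genes in each direction with the lowest p past the threshold, or else the gene with the lowest p. Some genes that this rule or the marker lists name are not reported here, while the counts include them. Each mouse gave 1 library, so p-values measure the spread between mice of these runs.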

Additional observations from a re-analysis of the deposited data

Results flagged for a closer look

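Among 46 sets of values (the 9 genes, their 13 partners and relatives, and Vcp-rs, each in the MFN2 and the WT group), 7 had a highest or lowest library that stood apart. For independent sets chance gives about 1 in 20, or 2.3. The sets share the same libraries and are not independent, so that this is no measure of an excess. The gap to the nearest library as a share of the whole range, both on the log2 CPM scale, is given for each of the 7. In MFN2 mice 5 of these were library 43, the library with forebrain genes. There Ubqln2 was highest (gap 0.639), at 248 CPM against 183 to 204 CPM, and Ubqln4 was highest (0.638), at 90.4 CPM against 51.9 to 63.5 CPM. Atxn2 was lowest (0.556), at 153 CPM against 180 to 205 CPM. Optn (0.648) was lowest, at 35.9 CPM against 51.7 to 62.97 CPM, and Ufd1 (0.598) was lowest, at 41.2 CPM against 49.3 to 55.5 CPM. In WT mice library 44, the WT library low in Xist, was lowest for Optn (0.887), at 49.9 CPM against 57.3 to 58.3 CPM, and for Ubqln4 (0.844), at 53.5 CPM against 66.6 to 69.4 CPM.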

How the results depend on the processing

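The counts of the 9 genes past the threshold in edgeR were 0, 0, 2 and 0 in the comparisons of all libraries, of libraries 41 to 47, of libraries 72 to 76 with WT and of the MFN2 runs. Leaving out each library gave 0 to 0, 0 to 0, 2 to 2 and 0 to 1 of the 9, the last being Tbk1 without library 43. For all genes the ranges were 0 to 19 over all libraries (19 without library 43, 7 without 41 and 1 without 76, against 0), 0 to 2 in libraries 41 to 47 (against 1), 2350 to 4517 in libraries 72 to 76 with WT (2350 without WT library 45, against 3746) and 31 to 2375 between the MFN2 runs (2375 without library 43, against 342). Over all libraries DESeq2 gave 200 genes, Xist as a covariate 4 and the forebrain score as a covariate 12. In libraries 41 to 47 no filter and limma-voom gave 0 genes, DESeq2 5 and Xist as a covariate 2. Between the MFN2 runs DESeq2 gave 1795 genes and 2 of the 9 (Tbk1 and Hnrnpa1), Xist as a covariate 1 gene, and the forebrain score 1816 genes and 1 of the 9 (Tbk1). Matr3 and Tbk1 in libraries 72 to 76 with WT passed in every setting run, with DESeq2 adding Hnrnpa1. The cause of these differences was not tested.

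The log2 fold changes that changed sign, none of them past the test with the settings of the report, were these. Over all libraries, library size alone gave 0.045 for Tardbp and 0.015 for Atxn2, DESeq2 gave 0.0037 for Tardbp, the forebrain score 0.0057 for Atxn2 and Xist -0.020 for C9orf72, and the numbering run gave -0.22 for C9orf72, -0.092 for Tbk1 and 0.035 for Hnrnpa1. In libraries 41 to 47 Xist gave -0.0034 for Smn1, and the forebrain score 0.0061 for Vcp and 0.055 for Atxn2. In libraries 72 to 76 with WT, library size alone gave 0.051 for Atxn2. Between the MFN2 runs limma-voom gave -0.011 for Smn1, Xist -0.0072 for Atxn2, and the forebrain score -0.067 for Atxn2 and -0.058 for Smn1. Leaving out each library over all libraries gave -0.049 to 0.045 for Tardbp, -0.039 to 0.086 for C9orf72, -0.074 to 0.00073 for Atxn2 and -0.019 to 0.050 for Smn1. In libraries 41 to 47 it gave -0.073 to 0.026 for Tardbp, -0.049 to 0.0072 for Vcp, -0.14 to 0.053 for Atxn2 and -0.078 to 0.097 for Smn1. In libraries 72 to 76 with WT it gave -0.030 to 0.066 for Tardbp, -0.059 to 0.015 for Atxn2 and -0.046 to 0.074 for Smn1, and between the MFN2 runs -0.020 to 0.17 for Matr3, -0.072 to 0.14 for Atxn2 and -0.065 to 0.13 for Smn1. No paired analysis was possible because the MFN2 and WT libraries share no replicate number. Smn1 had the fewest counts of the 9, 137 to 219 per library.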
